A study of Homo sapiens with 70 samples.

Results

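Versican, the hyaluronan it binds and the enzymes that make and cut both form the matrix that surrounds fibroblasts, and the genes of this matrix were followed here through growth, RAS-induced senescence and the depletion of HMGA1, CEBPB and p53. The set holds 10 genes, given by name: the proteoglycan gene VCAN, the hyaluronan synthase genes HAS1, HAS2 and HAS3, the hyaluronan receptor gene CD44, TNFAIP6, and the hyalectanase genes ADAMTS1, ADAMTS4, ADAMTS5 and ADAMTS9. All 10 were found among the 44503 genes counted. RNA-seq counts came from 3 tables with 70 libraries in 11 groups.

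IMR90 cells are human lung fibroblasts, and in every IMR90 group they carried ER:HRAS G12V from the vector pLNCX2, a RAS oncogene fused to an oestrogen receptor domain that is switched on by 4-hydroxytamoxifen (4OHT). The shHMGA1 table held Grow (no 4OHT, empty vector pMSCV miR), Grow-shA1 (no 4OHT, a hairpin against HMGA1 in the same vector), OIS (oncogene-induced senescence, 100 nM 4OHT for 6 days, empty vector) and OIS-shA1 (4OHT and the hairpin), with 8 libraries each. A separate table held cells with 2 vectors each, pSuper and pMSCV miR: Grow-v-v (both empty, no 4OHT), OIS-v-v (both empty, 4OHT for 6 days), and, with 4OHT for 6 days and hairpins against CEBPB, p53 or both, OIS-shCEBPB, OIS-shp53 and the doubly depleted OIS-shCEBPB-shp53, with 5 libraries each. H1299, a lung carcinoma line without the RAS construct, was given the empty pMSCV miR vector (7 libraries) or the HMGA1 hairpin (H1299-shA1, 6 libraries). Since 1 hairpin was used for each target, an effect of the hairpin apart from its target cannot be told apart from that of the target. The labels speak of 6 biological replicates per condition, fewer than the 8 libraries of each group in the shHMGA1 table and the 7 of H1299, and do not tie libraries to cultures. Some libraries of a group may therefore share a culture, and p-values measure the spread between libraries, which may be in part technical.

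Hyaluronan is a long unbranched sugar chain that the synthases extrude through the plasma membrane from UDP-sugars. Versican, a hyalectan, holds on to this chain by its amino-terminal end, with link proteins that lock the bond, and carries chondroitin sulfate chains on its middle part. CD44 anchors hyaluronan to the cell, TNFAIP6 (TSG-6) transfers heavy chains of the inter-alpha-trypsin inhibitor on to it, and the secreted ADAMTS proteases cut versican. This matrix is laid down in wound repair and inflammation of the lung, where fibroblasts are a main source of it.

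Total counts ran from 1903607 to 24890797 per library; OIS replicate 4 was the shallowest, and all others held at least 13904974. HMGA1 was lower with its hairpin, by a log2 fold change of -3.79 in Grow-shA1, -3.62 in OIS-shA1 and -2.31 in H1299-shA1. CEBPB was lower with its own, by -3.06 in OIS-shCEBPB and -3.19 in OIS-shCEBPB-shp53. All 10 listed fibroblast markers reached 1 CPM (counts scaled to library size and TMM factors as CPM) in every IMR90 group. Their summed level ran from 37726 to 47082 CPM in Grow and from 5764 to 7090.3 in OIS. The Grow sum was mostly COL1A1 and COL1A2, with means of 23225 and 12223 CPM, against 2447 and 924 in OIS. PDGFRA had means of 171 CPM in Grow and 182 in OIS, and all other listed fibroblast markers had lower means in OIS. With the HMGA1 hairpin the sums were 28216 to 33866 in Grow-shA1 and 6378 to 7382 in OIS-shA1. From OIS to OIS-shA1 the means of COL1A1, PDGFRB (126 to 81.8 CPM) and THY1 went down. Those of the other listed fibroblast markers went up, with DCN from 22.3 to 95.0. The sums were 39422 to 51672 in Grow-v-v, 13882 to 21283 in OIS-v-v and 17700.1 to 23091 over the 3 groups with CEBPB or p53 hairpins. FAP had means of 89.7 CPM in Grow-v-v and 92.1 in OIS-v-v, while all other listed fibroblast markers had lower means in OIS-v-v. In H1299, 2 of the 10 did reach 1 CPM, and 2 of 6 epithelial markers, KRT8 and KRT18, with means of 495 and 445 CPM, while EPCAM and CDH1 were at 0.147 and 0.276. The summed epithelial list ran from 74.4 to 100.0 CPM in Grow and from 42.9 to 59.2 in OIS. Of 5 leukocyte markers CD68 alone reached a mean of 1 CPM, and the summed list, nearly all CD68, ran from 16.2 to 22.7 CPM in Grow, 43.9 to 58.6 in OIS, 28.6 to 47.0 in Grow-v-v and 47.1 to 90.1 in OIS-v-v, with CD3E and PTPRC under 1 CPM in every library. Of 3 endothelial markers CDH5 stayed under 1 CPM in every group mean, VWF and KDR passed it in some senescent groups, and the sum was at most 6.25 CPM in any library. PECAM1, also on the endothelial list, could not be matched to a single counted gene and was left out. The part of these marker shifts in the results was not tested.

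OIS replicate 4 stood apart from the other OIS libraries on the first principal component of deviations from the group means, which held 24.7% of that variance in the shHMGA1 table. In the CEBPB and p53 table the same component held 36.6% and set replicates 1 to 3 of all 5 groups (scores from -20.3 to -11.3) apart from replicates 4 and 5 (18.1 to 30.5). The labels give no batch for either set of numbers. Results of that table are given over all 5 libraries. For the members they are also given with the replicate number as a block where this changed a call. Where the values of the sets of numbers differed, member results are given within each set. These sets were chosen after seeing the data, and no difference between them was tested. Results for other genes of the pathway are given without the block only.

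By length, CD44 was the most abundant of the 10 in growing IMR90 cells, at a mean level of 460.1 ± 34 CPM per kb of exon (SD, n = 8), followed by HAS2 at 89.4 ± 8.08 and VCAN at 75.7 ± 10.2. The ranges of HAS2 and VCAN overlapped there. ADAMTS1 stood at 22.7 ± 1.95 CPM per kb, ADAMTS5 at 3.51 ± 0.619 and HAS3 at 1.64 ± 0.196. TNFAIP6 (0.904 ± 0.268), ADAMTS4 (0.244 ± 0.0789) and ADAMTS9 (0.189 ± 0.0418) were all below 1 CPM per kb, and ADAMTS4 and ADAMTS9 did not differ beyond their spread. HAS1 was at 0.0336 CPM per kb on average and read 0 in 6 of 8 Grow libraries. In OIS the order of HAS2 and VCAN was clear, at 75.7 ± 4.89 and 26.2 ± 4.01 CPM per kb. H1299 had another profile, with CD44 at 43.6 ± 3.03 and HAS3 at 4.92 ± 0.278 CPM per kb in the lead and VCAN at 0.219 ± 0.0388.

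**Figure D1:**
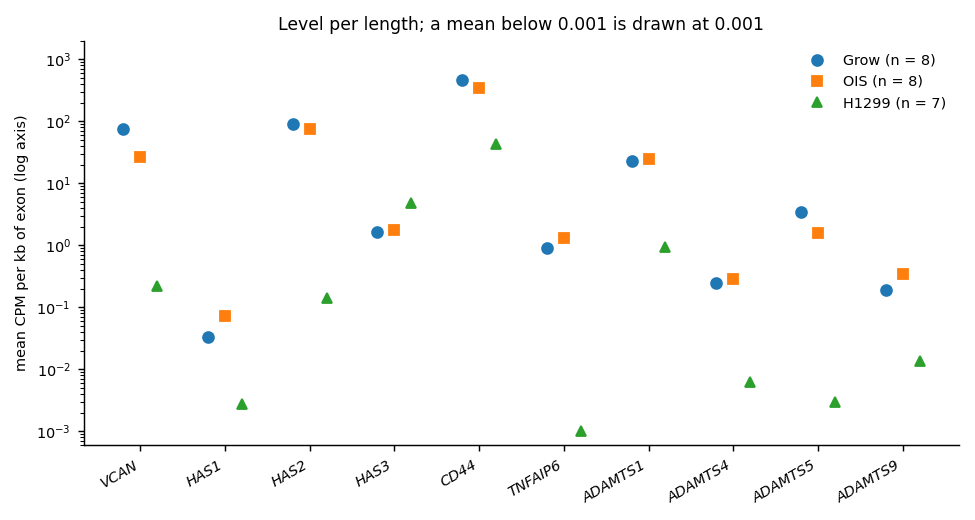
Mean level of each gene in CPM per kb of exon, on a log axis, in Grow (circles), OIS (squares) and H1299 (triangles). CD44 leads in all 3 groups, HAS2 and VCAN come next in IMR90 cells, and HAS3 comes next in H1299, where TNFAIP6, at 0, is drawn at the lower end of the axis.

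VCAN spans chr5:82767284-82878122 on the plus strand of hg19, and its counts cover all annotated exons, so splice forms that carry more or fewer chondroitin sulfate chains were not separated. HAS2 lies at chr8:122624356-122653630, HAS3 at chr16:69139467-69152622, HAS1 at chr19:52216365-52227247, CD44 at chr11:35160417-35253949 and TNFAIP6 at chr2:152214106-152236560. The proteases ADAMTS1 (chr21:28208066-28217728) and ADAMTS5 (chr21:28290231-28338832) are neighbours on the minus strand, and ADAMTS4 (chr1:161154098-161168846) and ADAMTS9 (chr3:64501333-64673676) lie alone. Counting did not use strand. Of the exon bases of VCAN, 3.1% overlap the antisense gene VCAN-AS1, and the shares were 4.8% for HAS2 with HAS2-AS1, 3.4% for HAS3 with CHTF8, 0.9% for CD44 with CD44-AS1 and 1.7% for ADAMTS9 with ADAMTS9-AS1, so reads from these stretches cannot be assigned to a strand.

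VCAN fell under RAS in both IMR90 tables, and its promoter is shown because it was the member with a RefSeq promoter entry that moved 1 way in both. The 250 bases before the RefSeq start lie at chr5:83471494-83471743 (GRCh38.p14, plus strand).

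VCAN promoter: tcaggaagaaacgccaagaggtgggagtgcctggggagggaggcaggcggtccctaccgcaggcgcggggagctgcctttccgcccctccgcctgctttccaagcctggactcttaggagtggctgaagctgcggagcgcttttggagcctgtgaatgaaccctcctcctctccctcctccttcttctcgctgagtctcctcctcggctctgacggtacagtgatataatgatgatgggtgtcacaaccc

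Promoter entries were found for 5 members (VCAN, HAS1, HAS3, CD44 and TNFAIP6), and those of HAS2, ADAMTS1, ADAMTS4, ADAMTS5 and ADAMTS9 had none. Each was searched on both strands for the AP-1 letters TGANTCA. The C/EBP letters TTGCNNAA and the TATA box letters TATAAA were searched in the same way, and a match would be in capitals. The TNFAIP6 promoter held the AP-1 letters TGAGTCA, starting 129 bases before the start, and the other 4 windows held none of the 3 motifs. Of 35116 RefSeq promoters of this length, 6.57% held the AP-1, 9.05% the C/EBP and 10.7% the TATA letters.

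The first comparison asked how the genes differ between senescent and growing cells. Of 9 members tested with edgeR's quasi-likelihood test, 3 were higher and 4 lower in OIS at an adjusted p under 0.05, beside 38.8% of all 13304 genes tested higher and 35.9% lower. VCAN and ADAMTS5 fell by more than 2-fold, ADAMTS9 rose by 1.97-fold and TNFAIP6 by 1.55-fold, and the other 3 that passed changed by 1.30-fold or less. The members' median log2 fold change was 0.13 and that of all genes 0.03. In bulk RNA, fewer cells of a type and less RNA per cell cannot be told apart.

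VCAN ran from 929 to 1324 CPM in Grow, with a median of 1144, and from 318 to 485 in OIS, with a median of 372. The groups did not overlap, and the fold change was 2.83 (log2 -1.50 ± 0.08 SE, adjusted p = 7.51e-16). Its highest OIS value belonged to the shallow replicate 4, without which the log2 fold change was -1.55.

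HAS2, the main synthase of fibroblasts here, had 323 to 421 CPM in Grow (median 376) and 276 to 338 in OIS (median 325). The ranges overlapped, 3 of 8 OIS libraries lying below all Grow libraries, and the fall was small, at -0.20 ± 0.05 on the log2 scale (adjusted p = 9.75e-04). Without TMM factors this call was lost, at -0.02 with an adjusted p of 0.770. HAS3 did not pass the test (7.05 to 10.1 CPM in Grow, 7.23 to 10.5 in OIS, log2 0.13, adjusted p = 0.206). Without TMM factors HAS3 was called higher, at 0.32 with an adjusted p of 0.00329. HAS1 was too low to be tested, with no library above 0.477 CPM.

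CD44 fell from a median of 4230.4 CPM (3673 to 4549.9) to 3021 (2911 to 3289). All 8 OIS libraries were below all Grow libraries, by -0.38 on the log2 scale (adjusted p = 2.88e-08). Without TMM factors the CD44 value was -0.19 (adjusted p = 3.08e-04). TNFAIP6, whose protein modifies hyaluronan, was low in both groups, at 0.721 to 1.97 CPM in Grow and 1.08 to 3.51 in OIS. It rose by 0.63 ± 0.22 (adjusted p = 0.0111) with overlapping ranges, and OIS replicate 4 rested on 3 counts.

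The hyalectanases did not move together. ADAMTS5 fell from a median of 32.6 CPM (24.3 to 38.6) to 14.3 (12.3 to 17.2), with no overlap, by -1.10 ± 0.09 (adjusted p = 1.03e-11). ADAMTS9 rose from a median of 2.16 CPM (1.38 to 2.50) to 3.61 (1.91 to 5.21), by 0.98 ± 0.16 (adjusted p = 4.14e-06), with the lowest OIS value inside the Grow range. ADAMTS1 had a small rise, 0.14 (129.8 to 164 CPM in Grow, 145 to 167 in OIS, adjusted p = 0.0118), which was lost without Grow replicate 1 and in the fit over all 4 groups. ADAMTS4 did not pass the test (1.23 to 3.67 CPM against 2.10 to 3.38, log2 0.28, adjusted p = 0.145). Without TMM factors ADAMTS4 was called higher, at 0.47 with an adjusted p of 0.0154.

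HMGA1 depletion in growing cells lowered VCAN and HAS2 and raised HAS3 and ADAMTS9. That is 2 of 9 tested higher and 2 lower, beside 14.8% of 13072 genes higher and 15.1% lower. VCAN had 525 to 841 CPM in Grow-shA1 (median 738), all 8 libraries below the Grow range of 929 to 1324, with a log2 fold change of -0.63 ± 0.08 (adjusted p = 1.59e-06). HAS2 had 236 to 384 CPM (median 287), and the fall of -0.33 ± 0.08 (adjusted p = 0.00279) came with overlapping ranges, replicates 5 and 6 of Grow-shA1 lying at 371 and 384 and the other 6 between 236 and 301.

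The 2 rises were near the threshold. HAS3 reached 8.73 to 11.2 CPM in Grow-shA1 (log2 0.24, adjusted p = 0.0261), and 4 of 16 fits that left out 1 library lost the call. ADAMTS9 reached 2.10 to 3.19 CPM (log2 0.40, adjusted p = 0.0494), and 12 of 16 such fits lost it. CD44 (log2 0.16, adjusted p = 0.0550), TNFAIP6, ADAMTS1, ADAMTS4 and ADAMTS5 did not pass the test. CD44 was near the threshold too, and passed in 5 of 8 fits with other settings and in 3 of 16 that left out 1 library. For ADAMTS5, the interval of 2 SE either side of the log2 fold change ran from -0.02 to 0.50.

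In senescent cells the same hairpin moved more of the genes. Of 9 tested, 3 were higher in OIS-shA1 than in OIS (HAS2, TNFAIP6 and ADAMTS5) and 4 lower (VCAN, ADAMTS1, ADAMTS4 and ADAMTS9), beside 18.8% of 13327 genes higher and 17.1% lower. VCAN dropped further, to 147 to 222 CPM (median 189.7) from 318 to 485 in OIS, with no overlap and a log2 fold change of -1.03 ± 0.08 (adjusted p = 3.90e-11). Its mean was 1124 ± 152 CPM in Grow and 189 ± 22.3 in OIS-shA1 (SD, n = 8).

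HAS2 rose to 462 to 689 CPM (median 564) from 276 to 338 in OIS. All 8 OIS-shA1 libraries were above every OIS library and also above the Grow maximum of 421, and the log2 fold change was 0.84 ± 0.06 (adjusted p = 1.62e-11). TNFAIP6 rose from a median of 2.13 to 6.26 CPM (4.74 to 8.29), again without overlap, by 1.56 ± 0.17 (adjusted p = 2.74e-08). HAS3 (log2 0.08) and CD44 (log2 0.04) did not pass the test, and the CD44 ranges were 2911 to 3289 and 2949 to 3349 CPM.

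Among the proteases, ADAMTS5 had 26.4 to 31.8 CPM in OIS-shA1, above all OIS libraries and within the Grow range of 24.3 to 38.6. Its log2 fold change against OIS was 1.01 ± 0.07 (adjusted p = 8.07e-12). ADAMTS9 fell to 1.07 to 2.33 CPM (median 1.58) from 1.91 to 5.21, by -1.26 ± 0.18 (adjusted p = 2.52e-06). ADAMTS4 (-0.67, adjusted p = 0.00102) and ADAMTS1 (-0.22, adjusted p = 0.00165) fell less, to 1.37 to 2.42 and 123 to 159 CPM, with overlapping ranges.

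**Figure D2:**
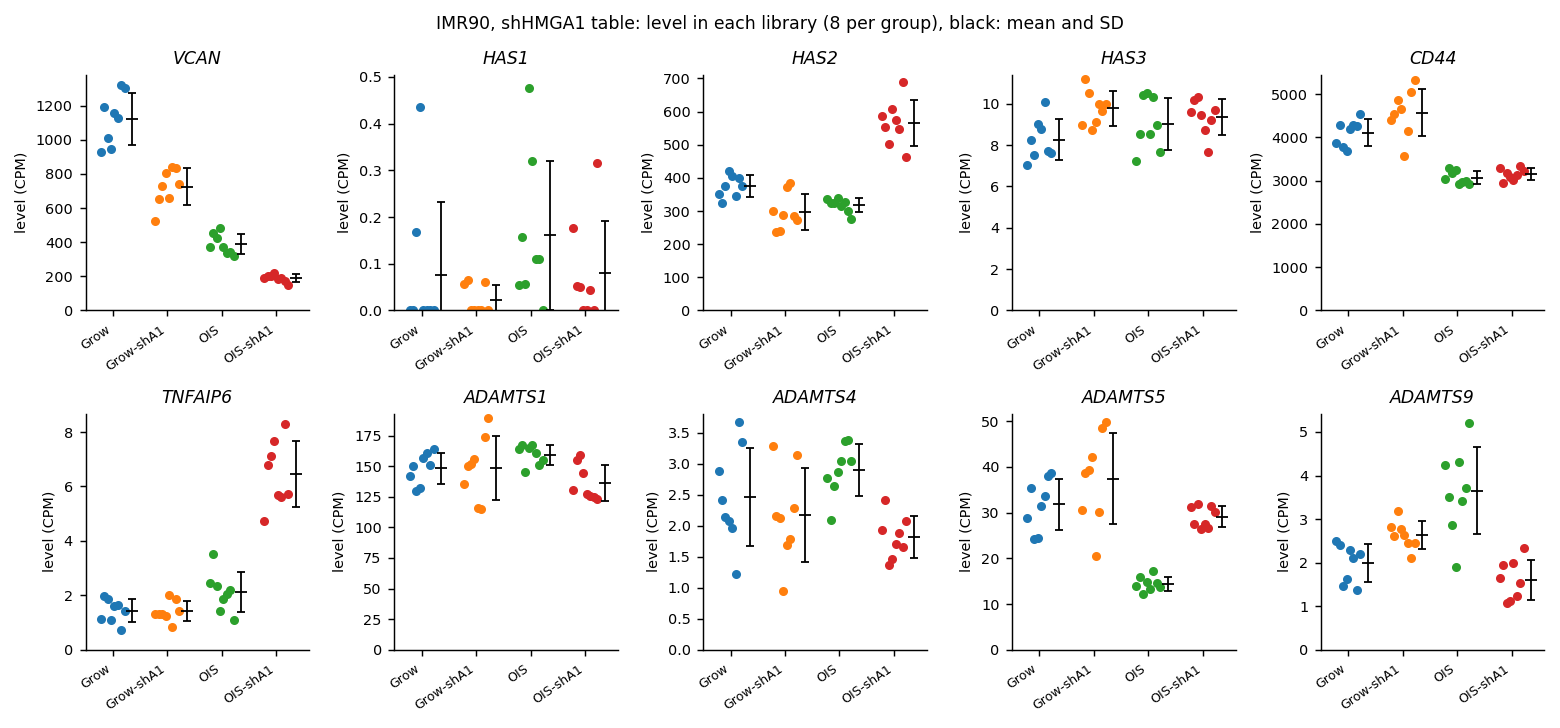
Level in CPM of each gene in each of the 8 libraries of the 4 groups without and with the HMGA1 hairpin, with each axis starting at 0 and the mean and SD in black. VCAN steps down from group to group, whereas HAS2 and TNFAIP6 are highest in OIS-shA1, where all 8 libraries lie above those of OIS.

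Whether the hairpin acted differently in senescent and growing cells was tested as an interaction in 1 fit over the 32 libraries. The effect was higher in OIS for 3 members and lower for 2, beside 12.2% of 13903 genes higher and 11.4% lower. HAS2, which fell in Grow-shA1 and rose in OIS-shA1, had a difference of effects of 1.17 ± 0.11 (log2, adjusted p = 1.29e-10). TNFAIP6 had 1.59 ± 0.27 (adjusted p = 2.31e-05) and ADAMTS5 0.78 ± 0.17 (adjusted p = 4.80e-04). ADAMTS9 went the other way, at -1.65 ± 0.23 (adjusted p = 7.19e-07), and the VCAN effect was larger in OIS by -0.40 ± 0.13 (adjusted p = 0.0158). HAS3, CD44, ADAMTS1 and ADAMTS4 did not pass this test. The 4 comparisons of this table share libraries and are not independent of each other.

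**Figure D3:**
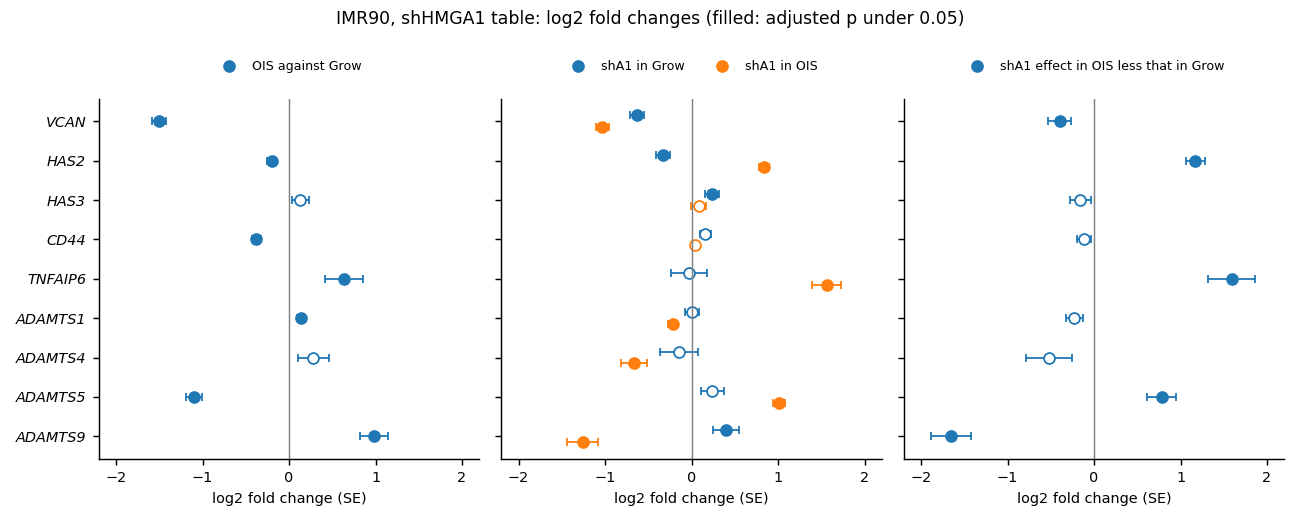
Log2 fold changes with their SE for 9 genes: OIS against Grow (left), the HMGA1 hairpin in Grow and in OIS (middle) and the difference of the 2 hairpin effects (right), with filled points at an adjusted p under 0.05. In the middle panel VCAN is left of 0 in both states, whereas HAS2 lies left of 0 in Grow (-0.33) and right of 0 in OIS (0.84).

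Over the 32 libraries, the genes whose log2 CPM followed VCAN most closely among 12564 were ADAM19 (Pearson r = 0.988), RELN (0.983) and HNRNPH3 (0.979). Those closest to HAS2 were SEL1L3 (0.898), KITLG (0.895) and DSEL (0.842). These coefficients run over 4 groups that differ in mean and describe the shared group pattern.

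Of 53 other genes of the pathway, 32 were tested in OIS against Grow, and 5 rose and 22 fell, with a median log2 fold change of -0.63, beside 38.8% of all genes higher and 35.9% lower. The largest falls were in HMMR, a hyaluronan receptor that also serves the mitotic spindle (66.7 to 88.3 CPM in Grow, 4.08 to 7.97 in OIS, log2 -3.74, adjusted p = 3.15e-24), and CEMIP, which takes part in hyaluronan breakdown (543 to 1062 CPM against 46.8 to 66.5, log2 -3.72, adjusted p = 8.58e-23). The hyalectanase gene ADAMTS8 fell as well (log2 -3.00, adjusted p = 3.05e-09), from a mean of 1.90 to 0.204 CPM. GFPT2, which supplies hexosamine for hyaluronan precursors, rose from 65.0 to 83.2 CPM to 267 to 333 (log2 2.09, adjusted p = 9.31e-24). CHST11 (1.46, adjusted p = 7.48e-19) and CSGALNACT2 (1.09, adjusted p = 2.33e-17), which build and sulfate chondroitin chains, rose too. Of 11 genes for chondroitin sulfate chains, 2 rose and 7 fell.

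In Grow-shA1, 3 of 33 pathway genes tested rose and 14 fell (median -0.09), beside 14.8% of all genes higher and 15.1% lower. Of 4 genes for versican-binding matrix proteins, 0 rose and 4 fell here, against 2 and 2 in OIS-shA1. Fibulin gene FBLN2 dropped to 1.97 to 5.94 CPM from 11.1 to 15 (log2 -1.62, adjusted p = 1.11e-09). TIMP3, the inhibitor of ADAMTS proteases, dropped to 485 to 714 CPM from 928 to 1647 (log2 -1.02, adjusted p = 1.51e-08). ADAMTS8 fell by -1.10 (adjusted p = 0.00101), and HAPLN1 (0.97, adjusted p = 0.0195), CSGALNACT2 (0.50, adjusted p = 2.42e-08) and HMMR (0.22, adjusted p = 0.0239) rose.

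Of 31 pathway genes tested in OIS-shA1 against OIS, 11 rose and 7 fell (median 0.09), beside 18.8% of all genes higher and 17.1% lower. FBLN2 and TIMP3 fell again, to 0.764 to 1.47 CPM (log2 -2.40, adjusted p = 2.70e-11) and to 179 to 278 CPM (log2 -1.20, adjusted p = 4.06e-12), and CHSY3 fell by -0.77 (adjusted p = 0.00463). The link protein gene HAPLN3 (0.92, adjusted p = 1.34e-08), CEMIP (0.72, adjusted p = 8.53e-07) and CHPF (0.59, adjusted p = 1.74e-06) rose. CEMIP reached 62.0 to 117 CPM, far below the Grow level. The interaction passed for 12 genes upward and 4 downward of 34 tested, beside 12.2% and 11.4% of all genes. Among them were CEMIP (1.26, adjusted p = 1.24e-08), HAPLN3 (0.75, adjusted p = 9.67e-06) and CHPF (0.66, adjusted p = 1.61e-05) upward and FBLN2 (-0.77, adjusted p = 0.0157), HMMR (-0.45, adjusted p = 0.0254) and CHST11 (-0.44, adjusted p = 1.81e-04) downward.

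The table with CEBPB and p53 hairpins held a further RAS comparison, OIS-v-v against Grow-v-v. Of 9 members tested, 1 was higher and 2 lower, beside 22.7% of 13344 genes higher and 23.2% lower, and with the replicate number as a block the count was also 1 higher and 2 lower, beside 24.8% and 24.9%. VCAN had 823, 877, 703, 714 and 435 CPM in Grow-v-v and 211, 229, 203, 325 and 301 in OIS-v-v (replicates 1 to 5). All 5 OIS-v-v libraries were lower, by -1.47 ± 0.19 (adjusted p = 4.78e-05), and the log2 fold change was -1.90 within replicates 1 to 3 and -0.88 within replicates 4 and 5, each past the test.

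For several members the 2 sets of replicates differed in level within a group and in the change between groups. HAS2 read 139, 128, 128, 385 and 411 CPM in Grow-v-v and 185, 175, 175, 338 and 318 in OIS-v-v. Pooled, the log2 fold change was 0.01 (adjusted p = 0.985), with an interval of 2 SE from -0.73 to 0.76. Within replicates 1 to 3 HAS2 rose by 0.44 (adjusted p = 6.68e-08), and within replicates 4 and 5 it had -0.28 (adjusted p = 0.127). The difference between the sets was not tested.

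ADAMTS5 showed the same kind of split, at 36.7, 35, 31.1, 13.3 and 8.92 CPM in Grow-v-v against 29.8, 29.9, 32.1, 28.3 and 25.1 in OIS-v-v. The pooled log2 fold change was 0.22 (adjusted p = 0.589), whereas the value was -0.16 (adjusted p = 0.0615) within replicates 1 to 3 and 1.27 (adjusted p = 8.22e-05) within replicates 4 and 5. CD44 was 2746, 2708, 2539, 2277 and 1928 CPM in Grow-v-v and 3421, 3415, 3400.4, 2151 and 2002 in OIS-v-v. It did not pass the pooled test (0.25, adjusted p = 0.254). Within replicates 1 to 3 it rose (0.36, adjusted p = 1.62e-07), beside -0.02 (adjusted p = 0.947) within replicates 4 and 5.

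ADAMTS4 fell in OIS-v-v, from 3.22, 5.11, 4.80, 4.40 and 3.69 CPM to 1.98, 2.72, 2.04, 2.54 and 3.60 (log2 -0.71, adjusted p = 0.0114), a change not past the test within replicates 4 and 5 (-0.40, adjusted p = 0.242). ADAMTS1 rose by 0.20 (adjusted p = 0.0455), from 111 to 132 CPM to 131 to 146, and each of the 10 fits that left out 1 library lost this call. HAS3, TNFAIP6 and ADAMTS9 did not pass the pooled test, but each did within 1 set. ADAMTS9 had 2.51, 3.15, 2.81, 0.407 and 0.627 CPM in Grow-v-v and 2.82, 2.84, 2.39, 1.19 and 1.80 in OIS-v-v, a rise of 1.52 within replicates 4 and 5 (adjusted p = 0.0136) beside -0.06 within replicates 1 to 3. HAS3 fell within replicates 4 and 5 (-1.13, adjusted p = 0.00888), beside 0.15 (adjusted p = 0.528) within replicates 1 to 3. TNFAIP6 fell within replicates 1 to 3 (-0.47, adjusted p = 0.0372), beside 0.31 (adjusted p = 0.414) within replicates 4 and 5. HAS1 was at 0 counts in all Grow-v-v libraries, which allows up to 0.206 CPM in the shallowest (3 counts), and at most 0.354 CPM in OIS-v-v. Limits of this kind cover counting error only.

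**Figure D4:**
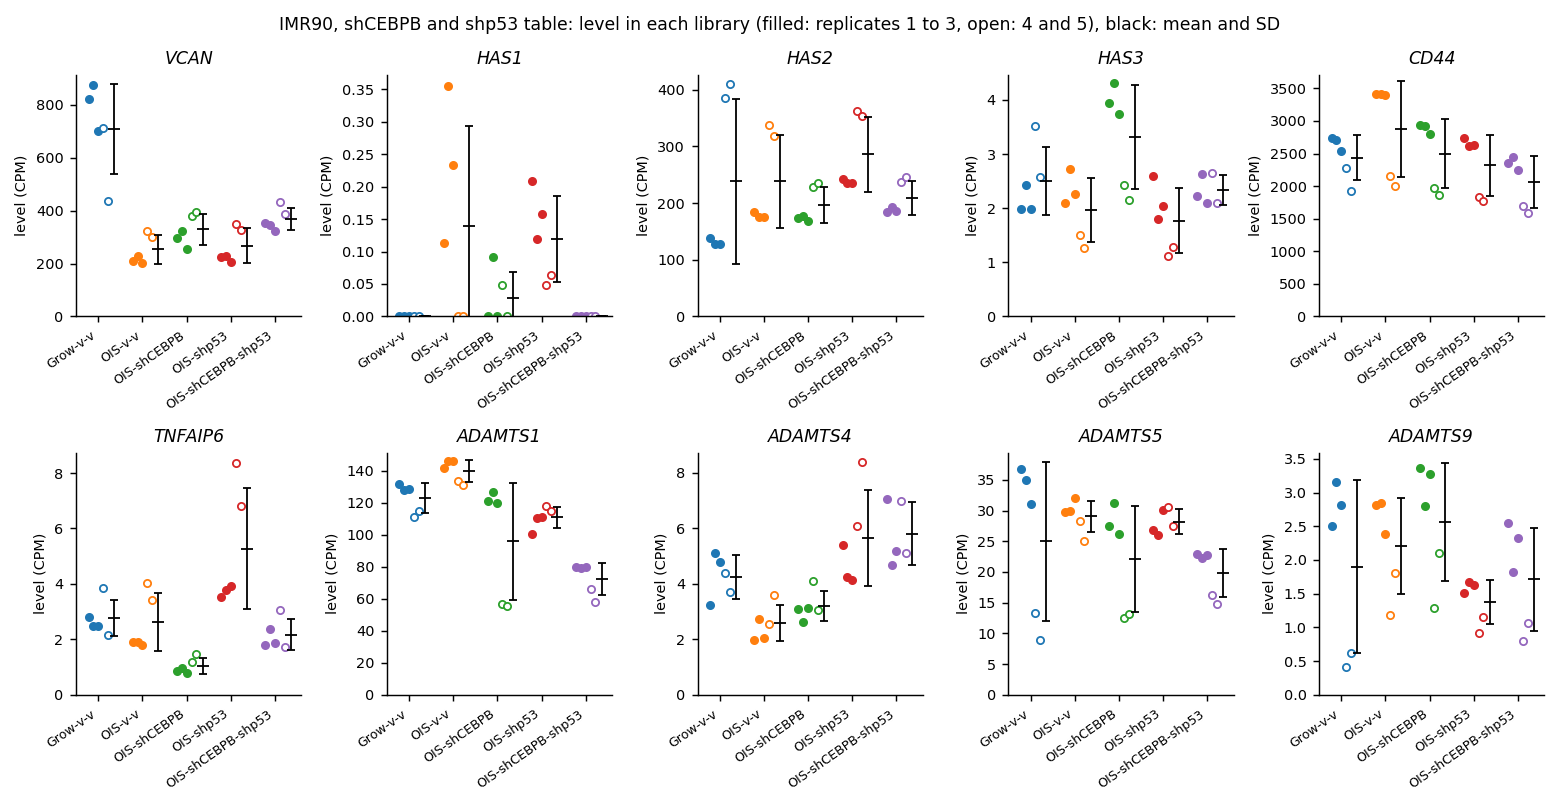
Level in CPM of each gene in each of the 5 libraries of the 5 groups with 2 vectors, filled for replicates 1 to 3 and open for 4 and 5, with each axis starting at 0 and the mean and SD in black. In HAS2 the open points of Grow-v-v (385 and 411) lie well above the filled ones (128 to 139), and in CD44 the open points are the lowest of every group.

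CEBPB, a transcription factor of the inflammatory secretome, was depleted in senescent cells in OIS-shCEBPB. Over all libraries, 0 of 9 members were higher and 1 lower than in OIS-v-v, beside 9.09% of 13396 genes higher and 8.0% lower. By the unadjusted p, 4 members were under 0.05, and DESeq2 called 1 higher and 1 lower. TNFAIP6 fell from 1.92, 1.89, 1.80, 4.05 and 3.42 CPM to 0.842, 0.964, 0.784, 1.19 and 1.48. All 5 values were below the OIS-v-v range, and the log2 fold change was -1.32 ± 0.28 (adjusted p = 0.00674).

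With the replicate block, 2 members were higher and 5 lower, beside 16.9% and 15% of genes. VCAN (0.38, adjusted p = 1.09e-04) and HAS3 (0.74, adjusted p = 0.00137) were higher, and TNFAIP6 (-1.30, adjusted p = 1.71e-04), ADAMTS1 (-0.63, adjusted p = 0.00749), ADAMTS5 (-0.46, adjusted p = 0.0352), HAS2 (-0.24, adjusted p = 0.0421) and CD44 (-0.20, adjusted p = 0.00513) were lower. VCAN had 296, 322, 256, 379 and 396 CPM in OIS-shCEBPB, each above the OIS-v-v library of the same number (211, 229, 203, 325 and 301). The labels do not pair equal numbers, and just 2 of these VCAN values lay above all OIS-v-v libraries. Without the block its value was 0.37 (adjusted p = 0.124).

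The estimated size of some changes differed between the sets of numbers, and this difference was not tested. The sets were chosen after seeing the data, and the second holds replicates 4 and 5 alone in each group. ADAMTS1 went from 142, 146 and 146 CPM to 121, 127 and 120.2 in replicates 1 to 3 (log2 -0.24, adjusted p = 6.22e-04) and from 134 and 131 to 56.6 and 55.3 in replicates 4 and 5 (-1.26, adjusted p = 6.71e-13). ADAMTS5 had 27.4, 31.3, 26.2, 12.5 and 13.2 CPM in OIS-shCEBPB, with -0.12 (adjusted p = 0.276) in the first set and -1.07 (adjusted p = 2.75e-08) in the second. HAS2 (174, 177, 168, 228 and 235 CPM) had -0.05 and -0.52, of which the second passed the test.

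OIS-shp53 was compared with OIS-v-v in the same way. Over all libraries 1 member was higher and 1 lower, beside 2.47% of 13378 genes higher and 1.97% lower. ADAMTS4 rose to 5.40, 4.25, 4.15, 6.08 and 8.40 CPM, all above the OIS-v-v maximum of 3.60, by 1.13 ± 0.23 (adjusted p = 0.0163), and without OIS-v-v replicate 3 the adjusted p was 0.0501. ADAMTS1 fell to 100.4, 110.3, 111, 118 and 115 CPM, all below the OIS-v-v minimum of 131, by -0.33 ± 0.06 (adjusted p = 0.00587). That call was lost in the fit over all 5 groups (adjusted p = 0.305) and within replicates 4 and 5 (-0.18, adjusted p = 0.126, beside -0.43 within replicates 1 to 3).

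With the replicate block, 3 members were higher and 3 lower, beside 12% and 10.7% of genes. TNFAIP6 (1.0, adjusted p = 6.79e-05) and HAS2 (0.30, adjusted p = 0.00188) joined ADAMTS4 (1.13, adjusted p = 8.04e-05), and CD44 (-0.30, adjusted p = 4.94e-04) and ADAMTS9 (-0.67, adjusted p = 0.0119) joined ADAMTS1 (-0.33, adjusted p = 5.31e-04). TNFAIP6 had 3.52, 3.77, 3.94, 8.35 and 6.80 CPM, each above the OIS-v-v library of the same number. The labels do not pair equal numbers, and just 2 of these TNFAIP6 values lay above all OIS-v-v libraries. Its log2 fold change was 0.99 in the first set of numbers and 1.02 in the second. HAS2 had 243, 236, 236, 363 and 354 CPM, a rise within replicates 1 to 3 (0.42, adjusted p = 1.06e-08) beside 0.13 (adjusted p = 0.276) within replicates 4 and 5. VCAN had 225, 229, 206, 348 and 328 CPM and a log2 fold change of 0.07 (adjusted p = 0.859), with an interval of 2 SE from -0.28 to 0.43.

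When both were depleted, 2 members were higher and 2 lower than in OIS-v-v, beside 17.1% of 13388 genes higher and 16.5% lower, and 2 higher and 3 lower with the block, beside 21.9% and 21.4%. VCAN rose to 354, 346, 322, 432 and 386 CPM, by 0.52 ± 0.13 (adjusted p = 0.00913), and ADAMTS4 to 7.06, 4.67, 5.19, 7.0 and 5.12 CPM, by 1.16 ± 0.19 (adjusted p = 5.03e-04). ADAMTS1 fell to 79.7, 79.2, 80.0, 66.2 and 58.2 CPM (-0.96 ± 0.09, adjusted p = 6.88e-06) and ADAMTS5 to 23.0, 22.2, 22.8, 16.3 and 14.8 CPM (-0.56 ± 0.13, adjusted p = 0.00512). All 4 of these passed the test within each set of numbers, and the ADAMTS5 call was lost in the fit over all 5 groups (adjusted p = 0.136). CD44 joined with the block (-0.47, adjusted p = 5.25e-05), at 2349.5, 2443, 2244, 1692 and 1584 CPM. HAS2, at 185, 193, 186, 237 and 246 CPM, did not pass over all libraries (-0.20, adjusted p = 0.466). It fell within replicates 4 and 5 (-0.45, adjusted p = 1.68e-05), beside 0.07 (adjusted p = 0.158) within replicates 1 to 3.

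The effect of both hairpins less the sum of the single effects passed the test in 0 of 9 members by edgeR, and 0 had an unadjusted p under 0.05, beside 0.0216% of 13873 genes higher and 0.0216% lower. The intervals of 2 SE were wide, from -0.36 to 0.53 for VCAN, -1.05 to 0.33 for HAS3 and -0.79 to 0.99 for ADAMTS9. The test therefore does not show that the 2 effects add. DESeq2 also called 0, as did the fit with the block, beside 0.231% of genes higher and 0.519% lower. Within replicates 1 to 3 HAS2 passed (-0.31, adjusted p = 0.00214), and within replicates 4 and 5 ADAMTS1 did (0.34, adjusted p = 0.0453). In the other set HAS2 had -0.06 (adjusted p = 0.779) and ADAMTS1 -0.20 (adjusted p = 0.119).

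**Figure D5:**
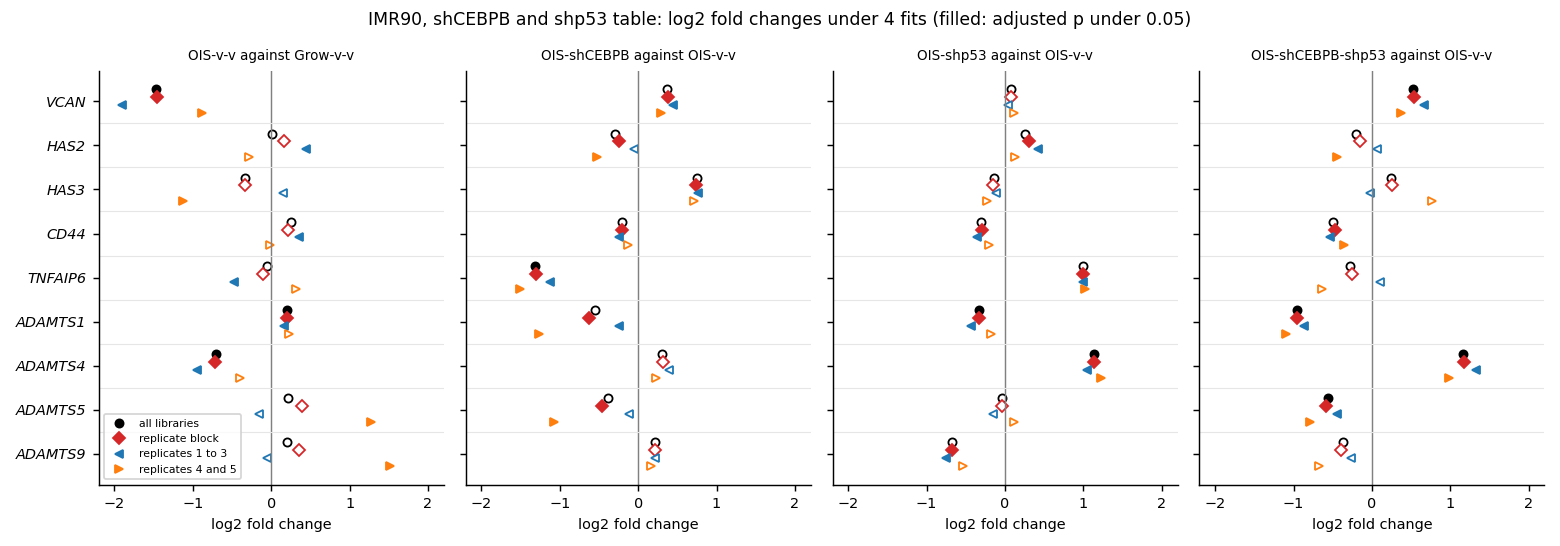
Log2 fold changes of 9 genes in the 4 comparisons of the groups with 2 vectors, over all libraries (black), with the replicate block (diamonds), within replicates 1 to 3 (left-pointing) and within replicates 4 and 5 (right-pointing), filled at an adjusted p under 0.05. VCAN keeps to the left of 0 in every fit of OIS-v-v against Grow-v-v, whereas HAS2 and ADAMTS5 fall on either side by set of numbers.

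Results for the other pathway genes in this table come from fits over all libraries without the replicate block. Of 31 such genes tested in OIS-v-v against Grow-v-v, 5 rose and 15 fell (median -0.32), beside 22.7% of all genes higher and 23.2% lower. CHST11 (1.95, adjusted p = 1.49e-06), GFPT2 (1.71, adjusted p = 4.33e-07) and CSGALNACT2 (1.53, adjusted p = 5.59e-07) led the rises, and HMMR (-2.45, adjusted p = 7.31e-06), CEMIP (-2.22, adjusted p = 1.93e-04) and FBLN2 (-2.18, adjusted p = 7.22e-07) the falls. In OIS-shCEBPB, 7 of 34 rose and 6 fell (median 0.03), beside 9.09% and 8.0% of all genes. PTX3, a pentraxin that binds heavy chains on hyaluronan, went from 71.5 to 88.5 CPM to 324 to 369 (log2 2.06, adjusted p = 9.17e-09) and TIMP3 from 139 to 150.4 CPM to 369.9 to 539 (log2 1.69, adjusted p = 8.97e-07). HAPLN1 rose from a mean of 0.367 to 1.80 CPM (2.27, adjusted p = 0.00131), and CHST15 (-2.51, adjusted p = 0.0339), CEMIP (-1.09, adjusted p = 0.00119) and GFPT2 (-0.99, adjusted p = 7.50e-04) fell. CHST15 was low and uneven, at a mean of 0.630 against 3.68 CPM (SE of the log2 fold change 0.73). Of its 5 OIS-shCEBPB libraries, 2 lay below all OIS-v-v libraries.

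In OIS-shp53, 4 of 32 pathway genes rose and 1 fell (median 0.04), beside 2.47% and 1.97% of all genes. CEMIP rose from 25.5 to 55.9 CPM to 99.5 to 134 (log2 1.65, adjusted p = 4.22e-04), followed by TIMP3 (0.56, adjusted p = 9.45e-05) and FBLN1 (0.53, adjusted p = 8.19e-04), and CSGALNACT2 fell by -0.20 (adjusted p = 0.0407). In OIS-shCEBPB-shp53, 10 of 34 rose and 6 fell (median -0.02), beside 17.1% and 16.5% of all genes, led by HAPLN1 (3.80, adjusted p = 4.20e-05), ADAMTS15 (3.10, adjusted p = 5.77e-05) and PTX3 (2.36, adjusted p = 1.30e-08) upward and CHST15 (-3.05, adjusted p = 0.00788), GFPT2 (-1.07, adjusted p = 2.61e-05) and CHST3 (-0.75, adjusted p = 0.00750) downward. CHST15 was again low there, at a mean of 0.441 against 3.68 CPM (SE 0.75), with 3 of 5 libraries below all OIS-v-v libraries. For the difference of effects, 0 of 34 passed by edgeR, and 3 had an unadjusted p under 0.05.

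H1299 cells tested the HMGA1 hairpin outside fibroblasts. There, 5 of the 10 members were high enough to be tested, and 0 were higher and 1 lower in H1299-shA1, beside 8.65% of 14840 genes higher and 6.93% lower. By the unadjusted p, 2 of the 5 were under 0.05, and DESeq2 likewise called 0 higher and 1 lower. VCAN ran from 2.38 to 4.07 CPM in H1299 (median 3.06) and from 2.07 to 2.68 in H1299-shA1 (median 2.36). The ranges overlapped and the log2 fold change was -0.46 ± 0.13 (adjusted p = 0.0178).

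CD44 had 352 to 439.8 CPM in H1299 and 367 to 478 in H1299-shA1 (log2 0.16, adjusted p = 0.0630). HAS3, the main synthase gene of this line, had 23.0 to 26.4 and 22.4 to 26.1 CPM (-0.04, adjusted p = 0.717), and HAS2 had 0.378 to 0.768 and 0.594 to 0.896 CPM (0.24, adjusted p = 0.485). ADAMTS1 had 4.48 to 9.15 and 3.66 to 7.81 CPM (log2 -0.03). HAS1, TNFAIP6, ADAMTS4, ADAMTS5 and ADAMTS9 stayed at or below 0.392 CPM in every library, and TNFAIP6 was at 0 counts in all 7 vector libraries, which allows up to 0.162 CPM in the shallowest. Of 32 other pathway genes tested, 8 rose and 3 fell (median 0.03), beside 8.65% of all genes higher and 6.93% lower. PTX3 (1.17, adjusted p = 0.00219), GFPT2 (0.63, adjusted p = 1.52e-04) and BCAN (0.58, adjusted p = 0.0384) led the rises, and CHST15 (-0.32, adjusted p = 0.0272), HYAL3 (-0.25, adjusted p = 0.0465) and FBN1 (-0.24, adjusted p = 0.00496) fell.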

How the data were processed

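Members and gene lists were chosen with earlier results of these data known. The deposited counts are whole reads or fragments per gene that the authors obtained by mapping to hg19 with STAR and summing over GENCODE exons with featureCounts (1.5.2 per the file headers of 2 tables), without use of strand. Fragments were counted in the IMR90 shHMGA1 table and single reads in the H1299 table, and for the CEBPB and p53 table the counting is not given in its header. The deposited exon length per gene was used for levels per kb. Symbols were found for 95.9% of 44503 Ensembl ids.

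Each comparison was fitted on the counts of its own groups with edgeR 4.0.16 (R 4.3.3): filterByExpr with a minimum count of 10, TMM factors, the quasi-likelihood F test, and Benjamini-Hochberg adjustment over all genes tested, at 0.05. The SE is the log2 fold change divided by the root of F. Levels are CPM after TMM scaling of the whole table. Tables were never joined in a test. Total counts per library ranged from 1903607 to 24890797, so low genes rest on few counts and limits at 0 are 3 counts.

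All 10 members are named. Of 53 pathway genes, at most 3 rises and 3 falls per comparison with a mean of at least 1 CPM are named. Tried as alternatives were DESeq2 1.42.0, other size factors, other filters, all groups in 1 fit, each library left out, a stricter threshold and a replicate block. In the CEBPB and p53 table same-numbered libraries deviated together in every pair (r from 0.14 to 0.59), by this check and not by the labels. The own number was the closest match for 2 or 3 of 5 libraries per comparison. The split between replicates 1 to 3 and 4 and 5 can give such r values, so the check cannot show that equal numbers are pairs. The main fits used no pairing, and the replicate block was an alternative. VCAN in OIS-v-v against Grow-v-v was -1.46 with the replicate block. In the other tables same-numbered libraries did not deviate together in every pair. The fits within replicates 1 to 3 and within 4 and 5 were chosen after seeing the data. Scripts were tested on simulated counts. No statistics of the authors were used. The level of 1 further targeted gene is not reported here.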

Additional observations from a re-analysis of the deposited data

Results flagged for a closer look

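The HMGA1 hairpin effect differed between senescent and growing cells, by the interaction test, in 5 members. The difference of log2 effects was 1.17 for HAS2, 1.59 for TNFAIP6, 0.78 for ADAMTS5, -1.65 for ADAMTS9 and -0.40 for VCAN. For HAS2 the hairpin effect passed the test in both states with opposite signs, and for VCAN with the same sign. ADAMTS9 fell in OIS-shA1 (-1.26), and its rise in Grow-shA1 (0.40, adjusted p = 0.0494 by edgeR) was lost in 12 of 16 fits that left out 1 library and in 4 other alternatives.

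ADAMTS1 in H1299 replicate 1, at 9.15 CPM, lay farther from the other 6 libraries of its group than Dixon's test allows. It was the 1 such value among 89 sets of a member and a group, where chance gives about 4.5.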

How the results depend on the processing

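Of 261 alternatives, those that changed just a threshold reused the main fits and gave no new member values. In the others, 1965 of 2078 values of single members stayed on their side of the threshold. Of these, 68, called in neither fit, had the other sign. A call was lost in 43 and gained with the same sign in 69, and in 1 it was gained with the other sign, ADAMTS1 in the double depletion less the sum of the single ones (0.34 within replicates 4 and 5 against -0.07). Low members rest on few counts (3 for TNFAIP6 and 4 for ADAMTS9 in OIS replicate 4), and leaving that library out changed no call of the tests it enters. The causes of the changes listed here were not tested.

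Counting just changes of 1.5-fold or more, 4 members of 7 and 4855 genes passed in OIS against Grow, 1 of 4 and 737 in Grow-shA1, 981 genes in OIS-shA1, 783 in the interaction, 3650 in OIS-v-v, 966 in OIS-shCEBPB, 1 member and 235 genes in OIS-shp53, 2 and 1790 in the double depletion, 3 genes in its difference from the sum, and 0 members and 358 genes in H1299-shA1. At an adjusted p under 0.01, 2 members and 2594 genes passed in Grow-shA1, 2000 genes in the interaction, 1 member in OIS-v-v, 1274 genes in OIS-shCEBPB, 1 member and 215 genes in OIS-shp53, 2708 genes in the double depletion, 2 in its difference from the sum, and 0 members and 1097 genes in H1299-shA1. With at least 10 counts in every library, which left 6 members to test, 4 were called in OIS-shA1 and 3 in the interaction.

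DESeq2 called 2 members in OIS-shCEBPB, 1091 genes in OIS-shp53 and 30 in the difference from the sum. Library sizes alone gave 2 members in OIS-shCEBPB, and a fit over all groups gave 3 there and 1 gene in the difference from the sum, where no filter gave 3. Library sizes alone also moved the share of calls that were higher from 51.9% to 66.2% in OIS against Grow, with the median of all genes at 0.216, from 49.4% to 60.3% in Grow-shA1, from 52.3% to 27.8% in OIS-shA1, from 51.7% to 20.4% in the interaction (median -0.127), from 53.2% to 70.9% in OIS-shCEBPB and from 50.9% to 71.0% in the double depletion.

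The replicate block gave 7 members and 4270 genes in OIS-shCEBPB, 6 and 3037 in OIS-shp53, 104 genes in the difference from the sum and 2 members in H1299-shA1 (CD44 0.18, adjusted p = 0.0264 by edgeR), where the numbers did not pair the samples. Within replicates 1 to 3, 6 members were called in OIS-v-v, 5 members and 4408 genes in OIS-shCEBPB, 6 and 4578 in OIS-shp53, 7240 genes in the double depletion, and 1 member and 463 genes in its difference from the sum. Within replicates 4 and 5 the numbers were 5 members in OIS-shCEBPB, and 1 member and 294 genes in the difference from the sum.

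Leaving out 1 library at a time gave 2 to 5 members in Grow-shA1, 1 to 2 in H1299-shA1, 1 to 2 in OIS-shCEBPB and 1 to 4 in OIS-shp53, with 336 to 938 genes in OIS-shp53 (938 without OIS-v-v replicate 4) and 2 to 10 in the difference from the sum.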
